A study of Homo sapiens with 6 samples.

Results

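The genes described here are 60 genes of the extracellular matrix and of cell adhesion, whose transcripts were sequenced in a human lung cancer line, NCI-H292 (pulmonary mucoepidermoid carcinoma), after treatment with mitoxantrone or with its solvent. They were chosen from the deposited table of 1305 genes as those whose Gene Ontology process terms hold the whole entry extracellular matrix organization, cell adhesion, homophilic cell adhesion via plasma membrane adhesion molecules, or single organismal cell-cell adhesion. Of 81 genes with such an entry, 9 were left out for an inflammatory or immune response entry and 12 for belonging to families or genes set aside by name (matrix metalloproteinases, serpin B and solute carrier genes, and single genes such as LAMA3, LAMB3 and COL17A1). The DMSO group was 3 libraries of cells kept for 48 h with DMSO diluted 1 in 1000, and the mitoxantrone group was 3 libraries of cells kept for 48 h with 50 nM mitoxantrone. Mitoxantrone is an anthracenedione that poisons topoisomerase II and breaks DNA, and the series title places the treatment in a study of senescence in lung cancer. Whether the libraries of a group stem from separate cultures is not stated in the labels, so the spread that the p-values rest on may be technical.

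Cells hold to the matrix through integrins and proteoglycan receptors, and to each other through cadherins, desmosomal cadherins and immunoglobulin-type adhesion proteins. Collagens, laminins and matrix glycoproteins form the material that these receptors bind, and proteases and their inhibitors set how fast it turns over. Airway epithelial cells sit on a basement membrane rich in laminins and are joined side by side by cadherins and desmosomes.

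The table is not a whole transcriptome: the authors' deposited table holds 793 genes with a higher and 512 with a lower level after mitoxantrone, none closer to 0 than 1.00 on its log2 fold change scale or above 0.043 in adjusted p. The entries that chose the 60 genes did not use expression, but every listed gene was selected on the same comparison, so the counts below describe the members and are no test of them. The authors' deposited table gives 6 of the 60 a log2 fold change just past its limit, among them TROAP at -1.015, IGFALS at -1.037, MYBPC3 at 1.024, COL27A1 at 1.038 and F8 at 1.045. The fold changes used below were fitted anew and differ from the deposited ones, most for genes with few reads. On the log2 scale they were -1.041 for TROAP, 1.076 for COL27A1 and 1.096 for F8. For IGFALS and MYBPC3, which had few reads, they were -1.904 (SE 0.590) and 2.186 (SE 0.744). The library totals that the counts and FPKM values imply ran from 14762544 to 17817782 reads, and the listed genes took 3.97% to 4.04% of them with DMSO and 6.08% to 6.2% with mitoxantrone. Levels are given as normalized reads, the raw read count divided by the library's size factor, or as FPKM (fragments scaled to gene length and library depth), the scale on which genes of different length are compared. Calls are from edgeR's quasi-likelihood test at an adjusted p of at most 0.05 (Benjamini-Hochberg over the 18313 genes the authors tested). In such bulk libraries, fewer cells with a transcript and less of it per cell cannot be told apart.

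A short sequence word recurs next to the start of some of these genes. The 250 bases before the RefSeq start (GRCh38.p14) were found for 40 of the 60 genes, in 47 windows. They were searched on both strands for TGANTCA, where N is any base. This wide word covers TGAGTCA and TGACTCA, the usual sites of AP-1 transcription factors (Fos and Jun dimers). It also covers TGATTCA and TGAATCA, which are not the usual sites. The word stood in 6 of the 47 windows (12.8%), each of another gene (CD226, CLCA2, KIAA1462, LPXN, PCDHGA11 and SRPX2), and in 5.4% of 22199 windows of protein-coding genes. CD226, KIAA1462 and LPXN each had another window, at a different start, without the word. The stretches of 5 of these genes that lie outside exons annotated by GENCODE are printed here, because they let the word and its surroundings be compared. The capitals mark the word, and each runs 5′ to 3′ on the gene's own strand. They are CLCA2 at chr1:86423921-86424085 (plus strand), SRPX2 at chrX:100643949-100644165 (plus), LPXN at chr11:58578221-58578383 (minus), KIAA1462 at chr10:30115495-30115744 (minus) and PCDHGA11 at chr5:141420801-141421046 (plus).
CLCA2: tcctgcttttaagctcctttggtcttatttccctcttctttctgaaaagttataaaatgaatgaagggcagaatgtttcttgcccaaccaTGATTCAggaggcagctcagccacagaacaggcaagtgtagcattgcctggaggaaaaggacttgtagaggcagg
SRPX2: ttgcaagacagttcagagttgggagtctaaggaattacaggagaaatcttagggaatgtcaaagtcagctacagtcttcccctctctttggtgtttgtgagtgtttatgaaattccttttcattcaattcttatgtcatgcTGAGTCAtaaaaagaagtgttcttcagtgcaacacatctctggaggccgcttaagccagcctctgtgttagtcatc
LPXN: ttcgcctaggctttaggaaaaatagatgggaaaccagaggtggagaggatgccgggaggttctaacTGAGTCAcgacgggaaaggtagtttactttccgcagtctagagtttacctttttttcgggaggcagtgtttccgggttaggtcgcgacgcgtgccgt
KIAA1462: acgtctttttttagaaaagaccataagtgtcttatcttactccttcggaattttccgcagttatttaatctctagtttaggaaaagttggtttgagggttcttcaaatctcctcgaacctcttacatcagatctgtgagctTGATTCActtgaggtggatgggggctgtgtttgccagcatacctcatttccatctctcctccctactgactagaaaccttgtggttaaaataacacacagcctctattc
PCDHGA11: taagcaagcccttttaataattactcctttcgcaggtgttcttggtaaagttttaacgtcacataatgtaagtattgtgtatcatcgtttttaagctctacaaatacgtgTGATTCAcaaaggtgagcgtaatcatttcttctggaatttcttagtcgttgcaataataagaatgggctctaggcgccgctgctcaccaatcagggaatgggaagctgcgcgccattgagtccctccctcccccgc
LPXN and SRPX2 carry the word as TGAGTCA and the other 3 as TGATTCA, as does CD226, which is not printed. The usual AP-1 sites were not counted apart over all windows, so the shares above are those of the wide word. The first base of the word lies 109 bases before the start in KIAA1462 and SRPX2, 140 in PCDHGA11, 160 in CLCA2 and 184 in LPXN. CLCA2, SRPX2, LPXN, KIAA1462 and CD226 rose with mitoxantrone and PCDHGA11 fell. As 78.3% of the 60 members and 60.8% of all listed genes were higher with mitoxantrone, nothing is read from this split. The word CACCTG (an E-box bound by SNAIL and ZEB repressors) stood in 10.6% of the members' windows and in 17.0% of all, and the p53 half-site in 8.5% and 5.3%. A match of this kind describes the letters and does not show binding.

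After mitoxantrone 43 of the 60 genes passed the test with a higher level (71.7%) and 12 with a lower level (20%), against 56.7% and 35.3% of all listed genes. Either way 55 passed (91.7%, against 92.0% of all listed genes), and 5, among them IGFALS, ACHE, MYBPC3 and CD33, did not. In all 60 genes the 3 libraries of one group lay wholly on one side of the 3 of the other, as in 98.6% of all listed genes. The median log2 fold change was 1.38 over the 60 genes and 1.26 over all listed genes. An absolute change of 2 or more was seen for 20 of the 60 (33.3%) and for 33.6% of all listed genes, on the log2 scale and in either direction. Scaling on the listed genes alone, every one of which was selected as changed, lowered the median log2 fold change of all listed genes by 0.69 (TMM) or 0.99 (DESeq2's size factors). The split of called members was then 23 higher and 13 lower, or 11 higher and 13 lower, and that of all listed genes 366 and 512, or 219 and 512, in place of 740 and 461. No member changed direction under any scaling tried.

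**Figure D1:**
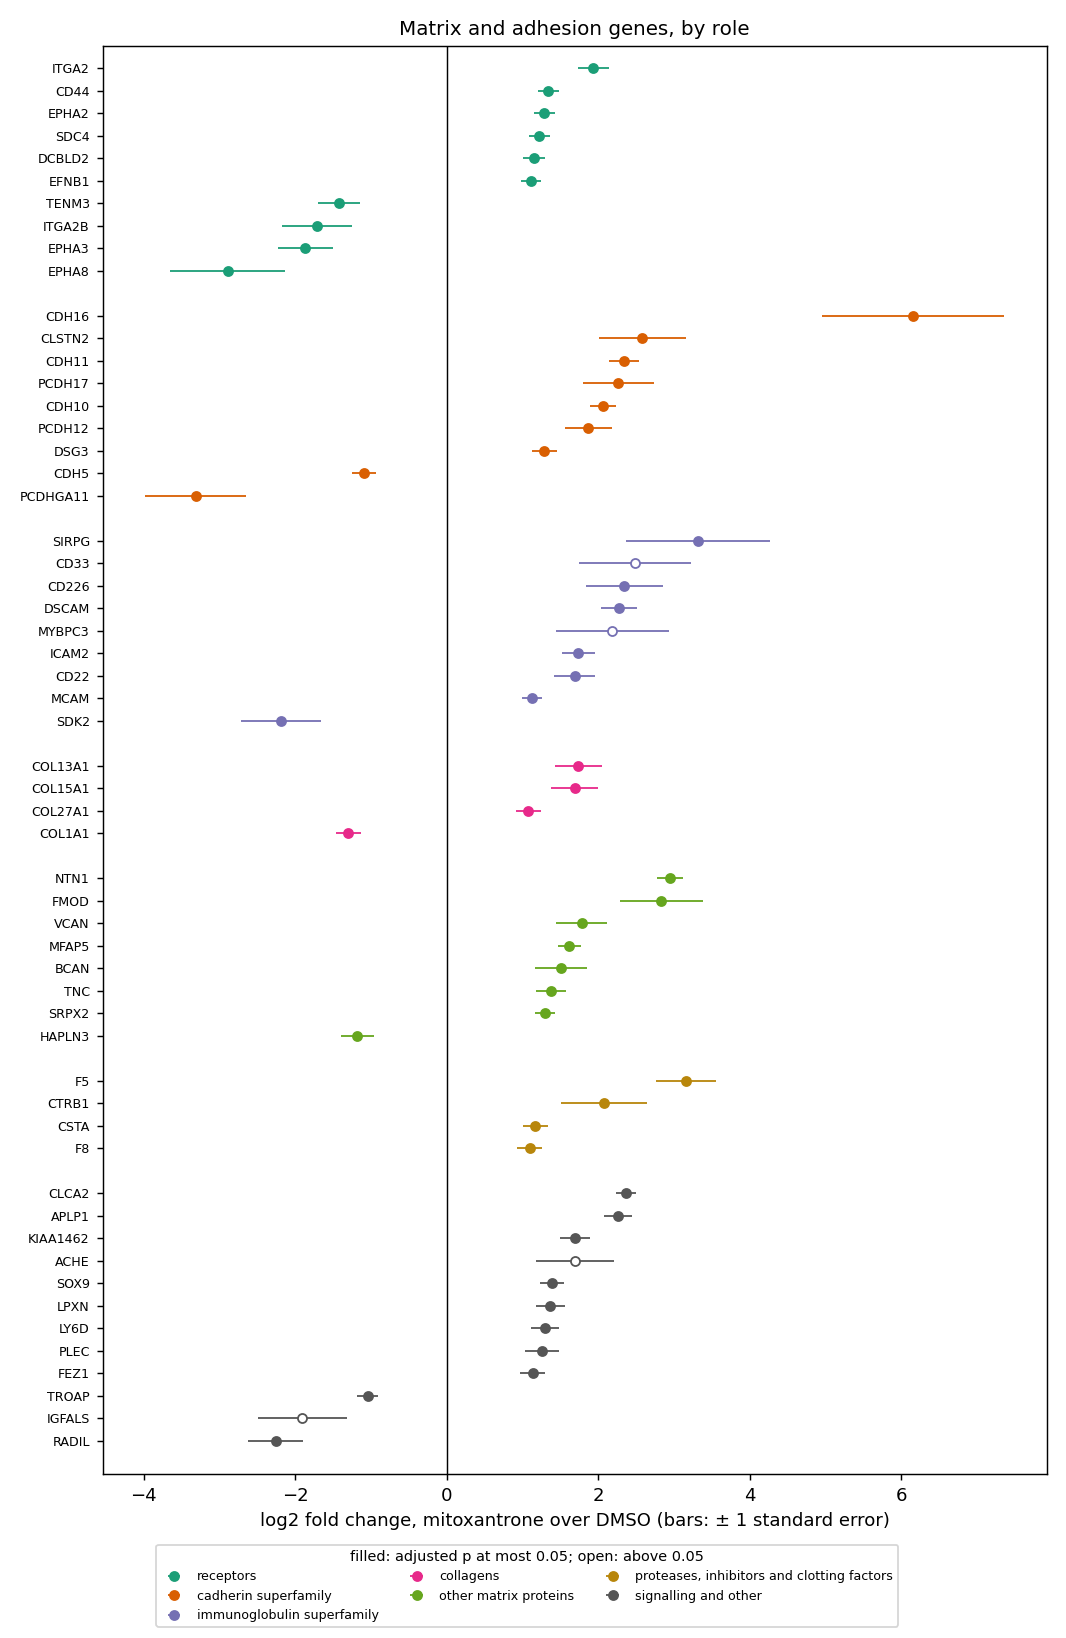
Log2 fold change (mitoxantrone over DMSO, horizontal axis) of 56 of the 60 genes, grouped by role, with bars of 1 standard error from edgeR and 3 libraries a group. Filled points have an adjusted p of at most 0.05 (41 to the right of 0 and 11 to the left) and the 4 open points do not; the value drawn for CDH16, which had 0 reads in every DMSO library, depends on the fit's prior count.

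Among the 11 receptors and their membrane-bound ligands, 6 rose, 4 fell and 1 did not pass the test. ITGA2 encodes the integrin alpha 2 chain, which pairs with beta 1 to bind collagen. It had 2509, 1410 and 1774 normalized reads in DMSO libraries 1, 2 and 3 and 5830, 7698 and 8279 in mitoxantrone libraries 1, 2 and 3. Every mitoxantrone library was above every DMSO library, with DMSO 2 and mitoxantrone 1 the lowest of their groups. The rise was 3.83-fold (log2 fold change 1.94, SE 0.20, adjusted p = 5.5e-06). CD44, the receptor for hyaluronan, had 6175, 5804 and 5428 normalized reads with DMSO and 14536, 14899 and 14684 with mitoxantrone. Its libraries agreed closely within each group, and the rise was 2.54-fold (SE 0.14 on the log2 scale, adjusted p = 5.6e-06).

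SDC4 (syndecan 4, a heparan sulfate proteoglycan of focal adhesions) rose 2.33-fold, from 2693, 3182 and 2666 normalized reads to 6880, 6536 and 6516. EPHA2, an ephrin receptor kinase, rose 2.45-fold, and EFNB1, a membrane-bound ephrin ligand, 2.17-fold. DCBLD2, a transmembrane protein with a discoidin domain, rose 2.22-fold. The Eph receptor genes EPHA3 and EPHA8 went the other way. EPHA3 had 28.4, 23.7 and 35.1 normalized reads with DMSO and 7.92, 7.29 and 8.59 with mitoxantrone, a fall of 3.64-fold (adjusted p = 0.0024). EPHA8 rested on 29 raw reads in all DMSO libraries together and 3 in all mitoxantrone libraries, a ratio of 8.13 after scaling with a 95% exact interval of 2.52 to 41.7. Its call was lost when DMSO 2, DMSO 3, mitoxantrone 1 or mitoxantrone 2 was left out, and the log2 fold change then ran from -3.75 to -2.34 over all libraries left out.

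TENM3, a teneurin that joins neurons across the synapse, had 77.3, 44.3 and 63.4 normalized reads with DMSO and 20.4, 26.1 and 22.5 with mitoxantrone. The groups lay apart, and the fall was 2.68-fold (SE 0.28 on the log2 scale, adjusted p = 0.0026). ITGA2B, the platelet integrin alpha IIb chain, fell from 18.9, 24.7 and 28.3 normalized reads to 13.6, 5.21 and 3.22 (3.27-fold, adjusted p = 0.031). That call was lost without DMSO 1, DMSO 3, mitoxantrone 2 or mitoxantrone 3 (log2 fold change from -2.47 to -1.36).

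**Figure D2:**
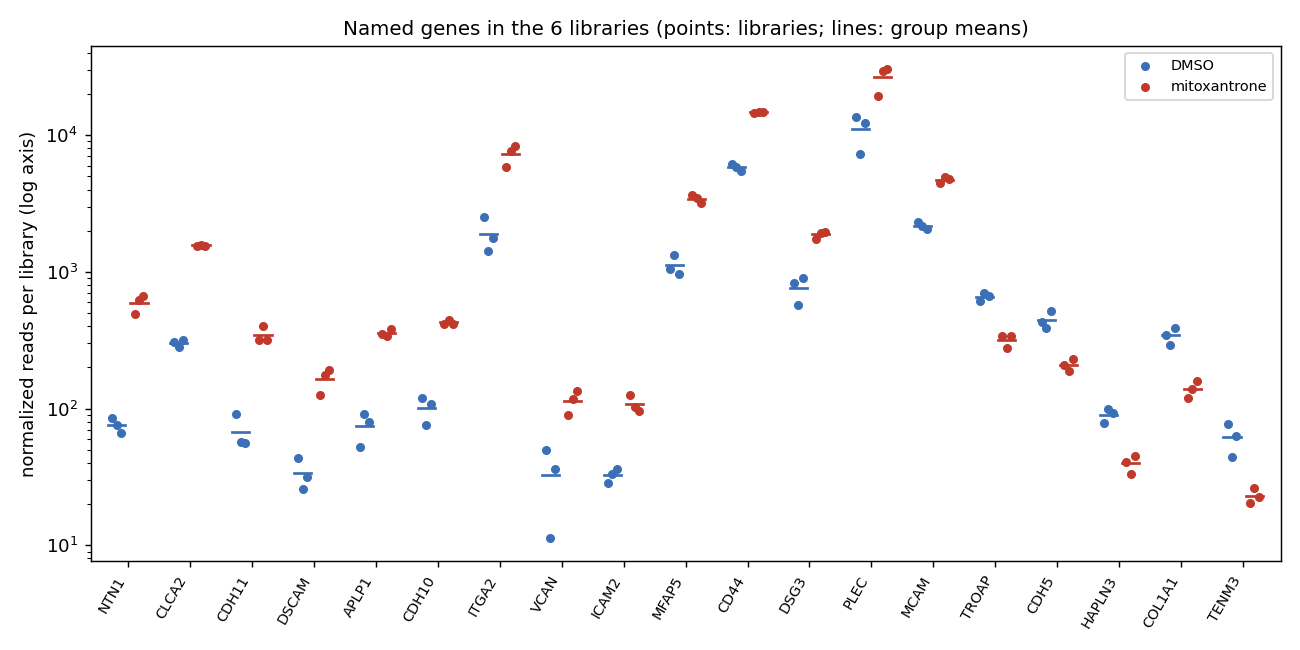
Normalized reads per library on a log axis for 19 of the genes named by rule that passed the test, ordered by log2 fold change from NTN1 (left) to TENM3 (right); blue points are the 3 DMSO and red points the 3 mitoxantrone libraries, and lines are group means. The groups do not overlap for any gene drawn, and DMSO 2 is the lowest DMSO library for ITGA2, VCAN and PLEC.

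Cadherin superfamily genes, which encode calcium-dependent cell-cell adhesion proteins, rose in 7 of 9 cases and fell in 2. CDH11, a cadherin of mesenchymal cells, had 91.1, 56.7 and 55.7 normalized reads with DMSO and 316.6, 403.2 and 317.7 with mitoxantrone. All 3 mitoxantrone libraries were far above the DMSO libraries, at 5.08-fold (SE 0.20 on the log2 scale, adjusted p = 8.2e-07). CDH10, a cadherin best known in the brain, went from 120.3, 76.3 and 108.0 normalized reads to 416.1, 446.0 and 416.5, a rise of 4.18-fold (SE 0.17, adjusted p = 6.3e-07). DSG3, a desmosomal cadherin of stratified epithelia, had 825.8, 573.9 and 902.2 normalized reads with DMSO and 1731, 1939 and 1969 with mitoxantrone. It rose 2.45-fold (adjusted p = 3.5e-05) and was, per gene length, the most abundant cadherin of the set in both groups (8.99 FPKM with DMSO and 20.9 with mitoxantrone).

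CDH5, VE-cadherin of endothelial junctions, went down: 430.5, 386.4 and 516.6 normalized reads with DMSO against 208.1, 187.6 and 229.7 with mitoxantrone. The lowest DMSO library was still well above the highest mitoxantrone library, and the fall was 2.13-fold (SE 0.15 on the log2 scale, adjusted p = 0.00011). PCDHGA11, one of the gamma protocadherins, had 15, 13 and 23 raw reads with DMSO and 0, 3 and 1 with mitoxantrone, a ratio of 10.7 after scaling (95% exact interval 3.94 to 40.8). Leaving out single libraries moved its log2 fold change from -4.53 to -2.80, and since gamma protocadherins share their last exons, reads may be split among them and this value is uncertain. PCDH12 and PCDH17, 2 non-clustered protocadherins, rose 3.65-fold and 4.81-fold, with at most 54.7 and 28.1 normalized reads in any library. CLSTN2, a calsyntenin of synapses, rose 6.0-fold on 7 raw reads with DMSO and 37 with mitoxantrone, and its call was lost without mitoxantrone 2. CDH16, the kidney cadherin, had 0 reads in every DMSO library and 7, 5 and 12 with mitoxantrone. Against a floor of 3 reads over the DMSO group the ratio was 9.52 after scaling. The 95% exact lower limit of the ratio, taken from 24 raw reads against 0 without that floor, was 7.16.

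Of the 10 immunoglobulin superfamily genes, 6 rose, 2 fell and 2 did not pass the test. MCAM (CD146), an adhesion protein of vessels and melanoma cells, had 2299, 2158 and 2054 normalized reads with DMSO and 4450, 4971 and 4789 with mitoxantrone. Per gene length it was the most abundant of this class (18.8 FPKM with DMSO and 39.2 with mitoxantrone), its libraries agreed within each group, and it rose 2.18-fold (SE 0.13 on the log2 scale, adjusted p = 1.9e-05). DSCAM, a neuronal recognition protein, had 43.8, 25.8 and 31.7 normalized reads with DMSO and 126.6, 177.1 and 191.1 with mitoxantrone. The rise was 4.84-fold (SE 0.24, adjusted p = 5.3e-06), with mitoxantrone 1 the lowest of its group. ICAM2, a ligand of leukocyte integrins on endothelium, went from 28.4, 33.0 and 36.0 normalized reads to 126.6, 103.2 and 95.5 (3.33-fold, SE 0.22, adjusted p = 3.6e-05).

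The other members of this class had few reads, and 4 of them are receptors best known from leukocytes. CD22, a sialic acid binding receptor of B cells, rose 3.23-fold from 19.6 to 27.4 normalized reads over the DMSO libraries to 56.5 to 98.7. CD226, an activating receptor of T and NK cells, rose 5.09-fold on 9 raw reads with DMSO and 40 with mitoxantrone. SIRPG, a T cell ligand of CD47, had 2 raw reads with DMSO, all in DMSO 2, and 20 with mitoxantrone, a ratio of 11.9 after scaling with a 95% exact interval of 2.89 to 105. At an adjusted p of 0.049 it only just passed, and the call was lost without DMSO 1, DMSO 3, mitoxantrone 2 or mitoxantrone 3 (log2 fold change from 2.77 to 6.18). CD33, a myeloid receptor, had 5 raw reads with DMSO and 25 with mitoxantrone (adjusted p = 0.063), and MYBPC3, a sarcomere protein with immunoglobulin domains, 6 and 24 (adjusted p = 0.14). SDK2, a synaptic sidekick protein, fell 4.56-fold on 56 raw reads with DMSO and 10 with mitoxantrone, a call lost without DMSO 1, DMSO 3 or mitoxantrone 1.

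Of the 4 collagen genes among the members, 3 rose and 1 fell. COL1A1, the alpha 1 chain of type I collagen and the one that fell, went from 347.1, 292.6 and 391.5 normalized reads with DMSO to 119.9, 139.6 and 158.9. The groups lay well apart, and the fall was 2.47-fold (SE 0.17 on the log2 scale, adjusted p = 3.8e-05). COL27A1, a fibrillar collagen of cartilage, rose 2.11-fold from 480.3, 332.8 and 442.1 normalized reads to 747.4, 849.2 and 1054. COL13A1, a transmembrane collagen, rose 3.34-fold from 10.3 to 21.5 normalized reads with DMSO to 43.0 to 56.9. COL15A1, a collagen of basement membrane zones, rose 3.22-fold from 14.6 to 31.8 to 55.8 to 96.1 normalized reads.

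Of the 8 other matrix proteins, 7 rose and 1 fell. NTN1, netrin 1, a laminin-like secreted guidance protein, had 85.9, 76.3 and 65.97 normalized reads with DMSO and 488.5, 617.9 and 661.2 with mitoxantrone. Even the lowest mitoxantrone library was several times the highest DMSO library. At 7.74-fold (log2 fold change 2.95, SE 0.17, adjusted p = 2.7e-08), its rise ranked first among members with reads at or above the table's median of 64.2. MFAP5, a glycoprotein of elastin microfibrils, had 1048, 1330 and 969.9 normalized reads with DMSO and 3637, 3447 and 3188 with mitoxantrone, a rise of 3.07-fold (SE 0.15, adjusted p = 1.6e-06). VCAN, versican, a large chondroitin sulfate proteoglycan, went from 49.8, 11.3 and 36.0 normalized reads to 89.3, 116.7 and 135.2. It rose 3.44-fold (SE 0.33 on the log2 scale, adjusted p = 0.0017), with DMSO 2 far below the other DMSO libraries. Without DMSO 2 the log2 fold change was 1.41 in place of 1.78.

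TNC, tenascin C, a glycoprotein of injured and growing tissue, rose 2.59-fold from 165.8, 99.9 and 157.6 normalized reads to 286.1, 392.8 and 424.0. SRPX2, a secreted sushi-repeat protein, rose 2.46-fold, from 27.4 ± 0.56 to 64.4 ± 0.76 FPKM (SD, n = 3 each). BCAN, the brain proteoglycan brevican, rose 2.85-fold on 60 and 143 raw reads, a call lost without mitoxantrone 3. FMOD, fibromodulin, a small proteoglycan that binds collagen fibrils, rose 7.12-fold on 9 and 56 raw reads, and its log2 fold change ran from 2.40 to 3.72 as single libraries were left out. HAPLN3, a link protein that fastens proteoglycans to hyaluronan, was the one to fall, from 79.1, 98.9 and 92.5 normalized reads to 40.7, 33.3 and 45.1. Every mitoxantrone library was below every DMSO library, and the fall was 2.27-fold (SE 0.22 on the log2 scale, adjusted p = 0.0016).

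All 5 proteases, protease inhibitors and clotting factors among the members rose. CSTA, cystatin A, a cysteine protease inhibitor of keratinizing epithelia, rose 2.25-fold from 435.6, 602.8 and 496.1 normalized reads to 1395, 1079 and 970.3. F5, coagulation factor V, had 10.3, 2.06 and 6.0 normalized reads with DMSO and 47.5, 72.9 and 51.5 with mitoxantrone. That is a rise of 8.94-fold from a low level (SE 0.40 on the log2 scale, adjusted p = 3.3e-05). F8, coagulation factor VIII, rose 2.14-fold from 88.5, 86.5 and 106.2 normalized reads to 213.7, 201.1 and 187.8. CTRB1, chymotrypsinogen B, rose 4.23-fold on 9 and 33 raw reads, and its call was lost without DMSO 2, DMSO 3, mitoxantrone 2 or mitoxantrone 3.

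The 12 members left are cytoskeletal, signalling and other proteins, of which 8 rose, 2 fell and 2 did not pass the test. CLCA2, a chloride channel accessory protein of epithelia and a known p53 target, had 306.8, 280.3 and 319.6 normalized reads with DMSO and 1558, 1582 and 1553 with mitoxantrone. Its libraries hardly varied within groups, and the rise was 5.17-fold (SE 0.13 on the log2 scale, adjusted p = 1.9e-08). APLP1, a relative of the amyloid precursor protein, went from 52.4, 91.7 and 79.7 normalized reads to 348.3, 337.6 and 382.1 (4.79-fold, SE 0.19, adjusted p = 6.5e-07). PLEC, plectin, which ties intermediate filaments to hemidesmosomes, had 13587, 7248 and 12328 normalized reads with DMSO and 19431, 29691 and 30309 with mitoxantrone. The groups were apart, but DMSO 2 and mitoxantrone 1 were each far below the other libraries of their group. The rise was 2.40-fold (log2 fold change 1.26, SE 0.23, adjusted p = 0.0011) with all 6 libraries. The log2 fold change was 1.21 (SE 0.11) without those 2.

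LY6D, a surface protein of squamous epithelia, rose 2.46-fold to 77.0 ± 7.98 FPKM (SD, n = 3). SOX9, a transcription factor of airway and cartilage progenitors, rose 2.63-fold from 499.2, 380.2 and 364.1 normalized reads to 920.4, 1132 and 1217. KIAA1462 (JCAD), a junctional protein of endothelium, rose 3.24-fold, and LPXN, leupaxin, a focal adhesion adaptor, rose 2.58-fold. FEZ1, an axonal transport adaptor, rose 2.19-fold. TROAP, trophinin-associated protein, which is active in dividing cells, fell 2.06-fold (SE 0.14 on the log2 scale, adjusted p = 5.7e-05). Its values were 614.4, 697.6 and 661.4 normalized reads with DMSO and 341.5, 278.2 and 339.2 with mitoxantrone, with no overlap. RADIL, a Rap effector in integrin-mediated adhesion, fell 4.79-fold on 110 and 19 raw reads (adjusted p = 0.0004). ACHE, acetylcholinesterase, had 14 and 39 raw reads with an adjusted p of 0.067, and IGFALS, a carrier subunit for insulin-like growth factors, 37 and 8 with an adjusted p of 0.081.

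**Figure D3:**
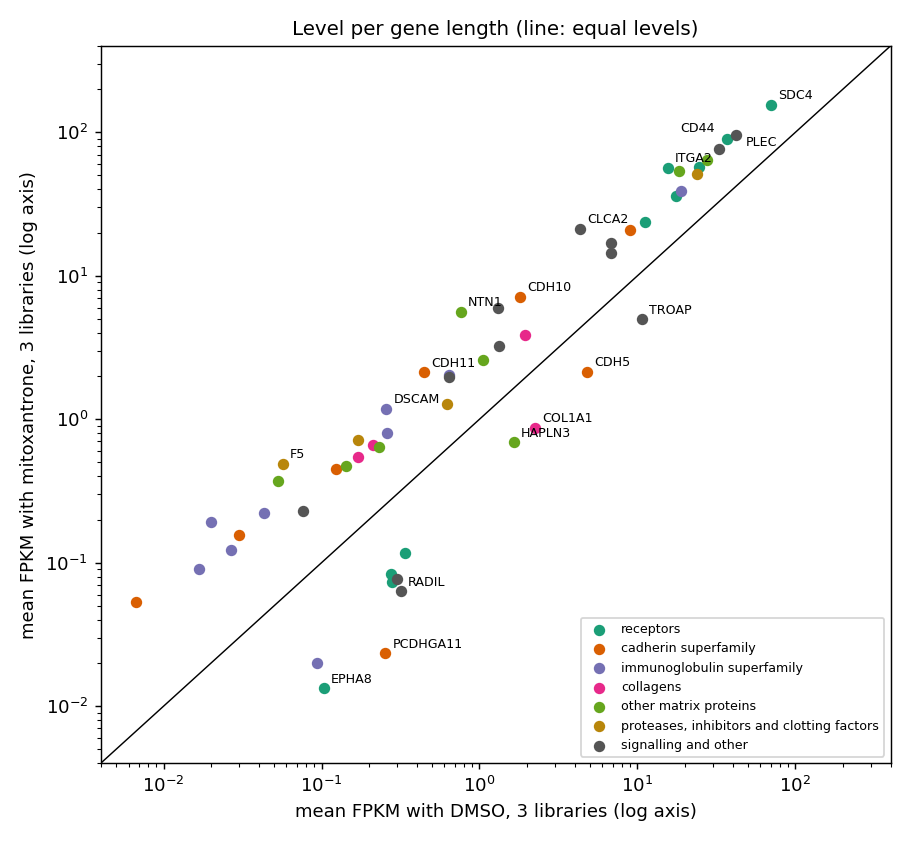
Mean FPKM of 3 DMSO libraries (horizontal) against mean FPKM of 3 mitoxantrone libraries (vertical), both log axes, for 55 of the 60 genes coloured by role; CDH16, at 0 with DMSO, cannot be drawn. Points above the line of equal levels are higher with mitoxantrone, and SDC4, PLEC and CD44 lie at the top right.

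On the FPKM scale, which allows genes to be ranked, the members ranged over several orders of magnitude. SDC4 (70.0 ± 4.29 FPKM with DMSO and 156 ± 2.32 with mitoxantrone, SD, n = 3 each), PLEC (42.2 and 95.9) and CD44 (37.1 and 89.7) were among the most abundant in both groups. In both groups PLEC and CD44 differed by less than the SD of PLEC (14.11 FPKM with DMSO and 23.85 with mitoxantrone). The difference was larger than the SD of CD44 (2.994 and 2.735). Among the 13 genes that were lower with mitoxantrone, TROAP had the highest level with DMSO, at 10.7 ± 0.36 FPKM (SD, n = 3). In all, 19 of the 60 genes had a mean under 20 normalized reads, among them 7 of the 8 genes whose call was lost on leaving out 1 library.

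Members with an extracellular matrix organization entry (19 genes) rose in 17 cases and fell in 2. Those with a cell adhesion entry (38 genes) rose in 25 cases, fell in 8 and did not pass in 5. The homophilic adhesion entry (10 genes) gave 7 rises and 3 falls, and all 8 genes with the cell-cell adhesion entry rose. Beside these, 71.7% of the 60 members rose and 20% fell, and of all listed genes 56.7% and 35.3%. With so few genes an entry, no difference between entries is read from these counts. Some genes count under several entries, since 13 of the 60 held more than 1. Gene Ontology also gives 40 of the 60 an entry for a membrane or the cell surface, and 25 an entry outside the cell. Of all 1305 listed genes, 390 and 190 had such entries.

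The deviations of the libraries from their group means went with gene length. Among the 41 members with a mean of at least 20 reads, the Spearman rho of deviation with length across genes was 0.62 in DMSO 1, -0.65 in DMSO 2 and 0.11 in DMSO 3. In mitoxantrone 1, 2 and 3 it was -0.55, 0.46 and 0.37. The 3 deviations of a group balance each other, and genes within a library share its depth and preparation, so these values are not independent. Of the 19 such members of at least 6000 bases, 1, 17 and 8 were below their group mean in DMSO 1, 2 and 3 (median log2 deviation 0.23, -0.31 and 0.08). In mitoxantrone 1, 2 and 3 they were 16, 3 and 6 (median -0.21, 0.08 and 0.14). Over all 931 listed genes with as many reads, rho was 0.36, -0.47 and 0.18 in the DMSO and -0.41, 0.21 and 0.31 in the mitoxantrone libraries. The members were long, with a median of 5538 bases against 3595 for all listed genes. Without DMSO 2 and mitoxantrone 1 together, an alternative chosen after seeing the data, 42 members rose and 10 fell, with 3 genes, CTRB1 and EPHA8 among them, no longer past the threshold. Without DMSO 1, 43 rose and 9 fell. What set the libraries apart was not tested.

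**Figure D4:**
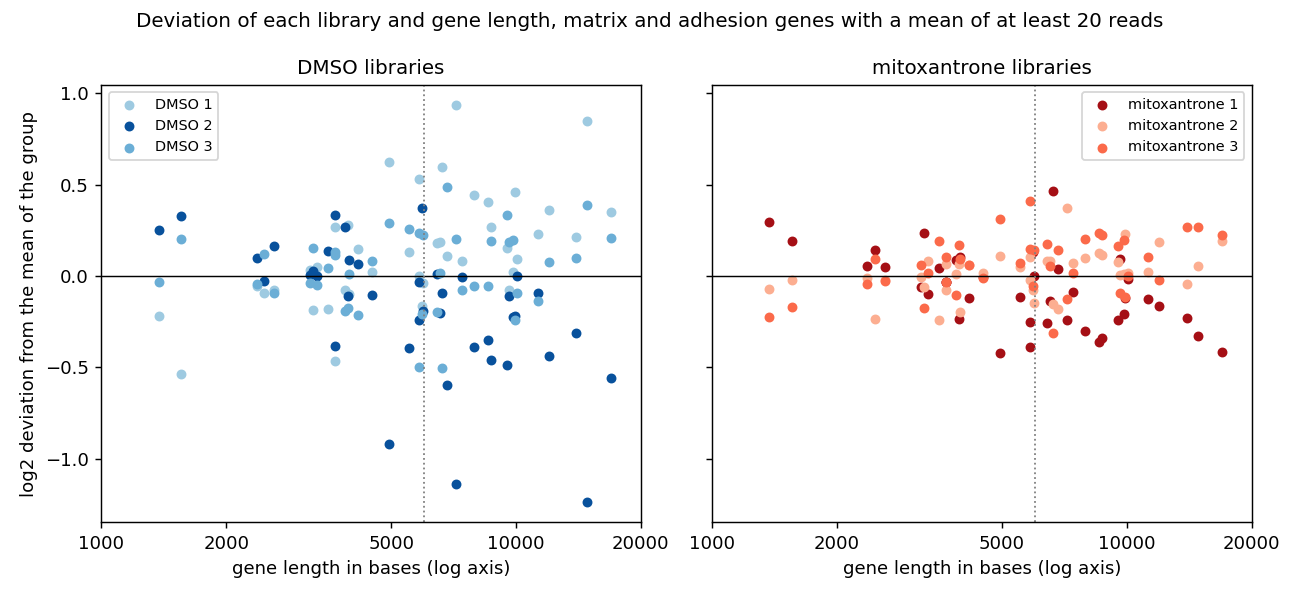
Log2 deviation of each library from its group mean (vertical) against gene length in bases (horizontal, log axis) for the 41 members with a mean of at least 20 reads, DMSO libraries at left and mitoxantrone libraries at right; each point is a gene in a library and the dotted line marks 6000 bases. DMSO 2 (dark blue) and mitoxantrone 1 (dark red) lie mostly below 0 for long genes, and DMSO 1 (lightest blue) mostly above.

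Of 247 genes in 12 lists of matrix and adhesion families, 25 were in the table (10.1%), beside 7.13% of the 18313 genes tested. The lists were chosen with results of these data known, so nothing is read from these shares. Of 21 integrin genes, ITGA2 and ITGB2 were listed, and ITGB2, the beta 2 chain of leukocyte integrins, rose 2.56-fold (adjusted p = 3e-06). Among 20 focal adhesion genes TNS4, a tensin, was listed and rose 2.12-fold. Of 25 genes of matrix crosslinking and remodelling 4 were listed and all rose: PLAU, urokinase, 4.50-fold, the sheddase ADAM8 3.33-fold, the aggrecanase ADAMTS1 2.94-fold and the cathepsin CTSS 2.37-fold. Among 18 proteoglycan genes VCAN, SDC4 and CD44 rose and GPC3, glypican 3, fell 3.36-fold (adjusted p = 0.00046). Of 26 matrix glycoprotein genes TNC, MFAP5 and ECM1 rose, the last 2.41-fold, and of 18 collagen genes COL13A1 and COL27A1 rose and COL1A1 fell. Cadherins and catenins gave CDH11, CDH16 and CDH5 of 23, protocadherins PCDH17 of 17, desmosomes DSG3 of 12, and the immunoglobulin superfamily MCAM and DSCAM of 30. Of 15 tight junction genes 0 were listed, a count too small to set against the general share.

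Cell type markers could be read only where listed. Of 14 epithelial markers KRT8 and KRT18, keratins of simple epithelia, were listed, and their summed level rose from 52817 to 137167 normalized reads. Of 12 fibroblast markers COL1A1 fell and ACTA2 rose 2.51-fold, for a summed level of 499.7 with DMSO and 530.4 with mitoxantrone, and of 8 endothelial markers CDH5 alone was listed. Of 10 leukocyte markers CD14 fell 2.23-fold and ITGAM rose 5.79-fold, for a summed level of 60.8 and 46.9. Of 7 neural markers MAP2 fell 2.26-fold and SYP had an adjusted p of 0.092, for a summed level of 72.3 and 30.4. The part of other cell types in the members' values was not tested.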

How the data were processed

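Total RNA of NCI-H292 cells was sequenced in 6 libraries as paired reads of 150 bases. The submitters' processing notes name DESeq2, Cufflinks 2.2.1, HTSeq 0.6.1, HISAT2 2.0.1 and cutadapt 1.9.1. Neither the genome build nor the strand setting is named there, so reads of a gene and of one overlapping it may mix, and the table's gene positions are not printed. The authors deposited, for 1305 genes, raw counts per library, FPKM, the mean scaled signal over libraries, log2 fold changes with standard errors, the test score, p-values and adjusted p-values. The size factors of the authors were solved from the deposited counts and mean scaled signal (largest relative error 5.0e-10), and the 18313 genes tested from the ratio of adjusted p to p.

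All listed genes were fitted with edgeR 4.0.16 (glmQLFit, glmQLFTest; limma 3.58.1, R 4.3.3) on the counts with those size factors, treatment only, and Benjamini-Hochberg adjustment over 18313 genes with ranks among the listed genes; the script was tested on simulated data. The members and all lists were chosen with earlier results of these data known, and the 7 role classes were assigned from the symbols. Values in every library are given for the 10 largest rises with reads at or above the table's median. They are also given for the falls with as many reads, which were fewer than 10 (COL1A1, HAPLN3, CDH5 and TROAP). The members with most reads in each class and direction are treated alike. Other members are given more briefly, and any fuller values were chosen after they were seen. Deviations are of log2(normalized reads + 0.5). Exact intervals are 95% binomial and, like the floor of 3 reads, cover counting error only. Alternatives were TMM, DESeq2 1.42.0 size factors and Wald test, library totals, a filter on low counts, adjustment over listed genes, a replicate block, leaving out libraries, single entries and 1 strand for motifs. Protein sequences were not used here, and 4 members that count in the totals are not reported one by one.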

Additional observations from a re-analysis of the deposited data

How the results depend on the processing

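The 43 rises and 12 falls among the members, and the 740 and 461 among all listed genes, depended most on scaling. With TMM over the listed genes 23 members and 366 listed genes rose, and 15 genes of the family and cell type lists in place of 26. With DESeq2's size factors over the listed genes these were 11, 219 and 8. Both are computed on genes selected as changed; 20 and 32 rises among the members were lost and IGFALS passed as a fall. Restricted to 1 entry, extracellular matrix organization left 17 rises and 2 falls and cell adhesion 25 rises, with fewer genes counted. Library totals gave 43 and 12 members, DESeq2's Wald test 41 and 10 (679 and 427 of all listed genes), a filter on low counts 40 and 11 of 51 tested, and adjustment over listed genes 47 and 13. Without 1 library at a time members gave 40 to 43 rises and 9 to 12 falls, and the lists 3 to 5 falls against 5, the lowest without DMSO 3 or mitoxantrone 3. No member reversed direction under any of these. The replicate block gave 44 rises and 12 falls among the members (736 and 463 of all listed genes). Same-numbered libraries had correlations of -0.21, -0.14 and 0.02 over 1105 genes and did not each correlate best with their own number, so the numbers were not taken as pairs. Counting the E-box on the sense strand only gave 3 members in place of 5. Depth limits the members with few reads, such as EPHA8, SIRPG, CDH16 and PCDHGA11.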
